A study of Macaca mulatta with 24 samples.

Results

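*MIF* and *DDT* encode a pair of related secreted ligands, *CD74* encodes the receptor that both bind, and *CD44* encodes the coreceptor that signals with it. These 4 genes, of 32386 in the deposited count table, were selected on the group pattern of *MIF* and *DDT* in these same data, with *CD74* and *CD44* added for their roles. The group levels of *MIF* and *DDT* are therefore given as a description with no test, whereas *CD74*, *CD44* and the genes around them were tested. Each gene was matched by its Ensembl identifier, which was ENSMMUG00000009106 for *MIF*, ENSMMUG00000004552 for *DDT*, ENSMMUG00000009113 for *CD74* and ENSMMUG00000004327 for *CD44*, and all 4 passed the filter on low counts.

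The samples were biopsies of omental fat, a visceral white adipose depot, from 24 female rhesus macaques labelled as 4 years old, where the study's methods give about 5.5 years at the biopsy, 6 in each of 4 groups. The controls (*C*) carried cholesterol implants and ate monkey chow, the *T* group carried testosterone implants and ate chow, the *WSD* group carried cholesterol implants and ate a high-fat Western-style diet, and the *T* + *WSD* group received both testosterone and the diet, with treatment for 3 years. The design asks how testosterone and the diet, each alone and together, act on this tissue. Total counts per library ran from 8873248 to 22040690 in *C* and from 13836058 to 28270776 in *T*, beside from 9006135 to 23839192 in *WSD* and from 6899185 to 21015713 in *T* + *WSD*.

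MIF is a cytokine that many cell types hold ready-made and release under stress or inflammation, and it also carries a tautomerase site and counteracts glucocorticoids. DDT, its closest relative, shares the fold and the CD74 receptor but lacks the motif with which MIF engages the chemokine receptors CXCR2 and CXCR4. CD74 is also the invariant chain that guides MHC class II molecules in antigen-presenting cells, it relies on CD44 to signal at the cell surface, and in fat these proteins have been studied for their part in macrophage recruitment and inflammation.

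Levels are given as CPM, the counts per 1000000 of each library's total, after TMM scaling, a correction for differences in composition between libraries. In 8 libraries, 2 in each group, the gene ENSMMUG00000038258 took from 9.92% to 54.7% of all counts, against 0.879% to 2.51% in the other 16. Those 8 libraries are treated below as a batch, in which group differences are also given on their own.

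The ligand *MIF* was at 45.7 CPM in the lowest *C* animal, 79.9 at the median and 112 in the highest. In *T* the lowest, median and highest levels of *MIF* were 50.7, 72.8 and 117 CPM. These 2 groups overlapped over almost their whole range. In *WSD* the levels of *MIF* spread more widely, from 44.4 through a median of 106 to 181 CPM. In *T* + *WSD* they were low and close together, at 33.9, 44.7 and 62.3 CPM. Replicates 20, 23 and 24 of *WSD* lay above every control and replicate 21 lay below every control, so that diet alone gave the widest spread of *MIF* among the 4 groups. In *T* + *WSD*, 4 of 6 animals lay below every *C* animal, 5 of 6 below every *T* animal and 3 of 6 below every *WSD* animal.

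The mean level of *MIF* was 78.8 ± 21.1 CPM (SD, n = 6) in *C* and 75.1 ± 23.4 in *T*, beside 107 ± 53.8 in *WSD* and 45.4 ± 9.64 in *T* + *WSD*. In the order of these means, *T* + *WSD* was lowest, below *T* by more than the SD of either, *T* and *C* differed by less than the SD of either group, and *C* and *WSD* by less than the SD of *WSD*. The log2 fold change of *MIF* against *C* was −0.07 ± 0.28 (SE) in *T* and 0.44 ± 0.28 in *WSD*, and it was −0.79 ± 0.28 in *T* + *WSD*. These 3 contrasts share the same control animals. Between the treated groups, the log2 fold change of *MIF* in *T* + *WSD* was −1.23 ± 0.28 against *WSD* and −0.72 ± 0.28 against *T*, and its interaction term, the departure of *T* + *WSD* from the sum of the single effects, was −1.16 ± 0.40. The mean log2 difference of *MIF* between *T* + *WSD* and *C* was −1.0 within the batch and −0.66 outside it, that between *T* + *WSD* and *T* −1.19 and −0.45, and that between *T* + *WSD* and *WSD* −1.44 and −0.91.

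The second ligand, *DDT*, was at 44.9, 56.3 and 90.6 CPM in the lowest, median and highest *C* animal. In *T* it was at 40.8, 55.7 and 75.3 CPM. The ranges of *DDT* in these 2 groups overlapped as those of *MIF* did. In *WSD* the level of *DDT* ran from 32.8 CPM through a median of 62.1 to 99.9 CPM. In *T* + *WSD* it ran from 24.9 CPM through a median of 28.6 to 40.6 CPM. All 6 *T* + *WSD* animals lay below every *T* animal, as 3.10% of all 15207 tested genes did, and below every *C* animal, as 4.12% did, a pattern on which *DDT* was selected. Against *WSD*, 5 of 6 lay below every animal, and the exception was replicate 12 of *T* + *WSD*, which had the highest level of both ligands in its group.

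The mean level of *DDT* was 60.1 ± 17.2 CPM (SD, n = 6) in *C* and 58.8 ± 13.1 in *T*, beside 65.6 ± 28.7 in *WSD* and 30.1 ± 5.53 in *T* + *WSD*. The *C*, *T* and *WSD* means differed from each other by less than the SD of any of them, and the *T* + *WSD* mean lay below each of the others by more than the SD of either group. The log2 fold change of *DDT* against *C* was −0.03 ± 0.24 (SE) in *T* and 0.12 ± 0.24 in *WSD*, and it was −1.0 ± 0.24 in *T* + *WSD*. In *T* + *WSD* it was −1.13 ± 0.24 against *WSD* and −0.97 ± 0.24 against *T*. Within the batch the mean log2 difference of *DDT* between *T* + *WSD* and *C* was −0.97, and outside the batch it was also −0.97. Against *T* the 2 values of *DDT* were −1.13 and −0.86, and against *WSD* −1.29 and −0.88.

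**Figure D1:**
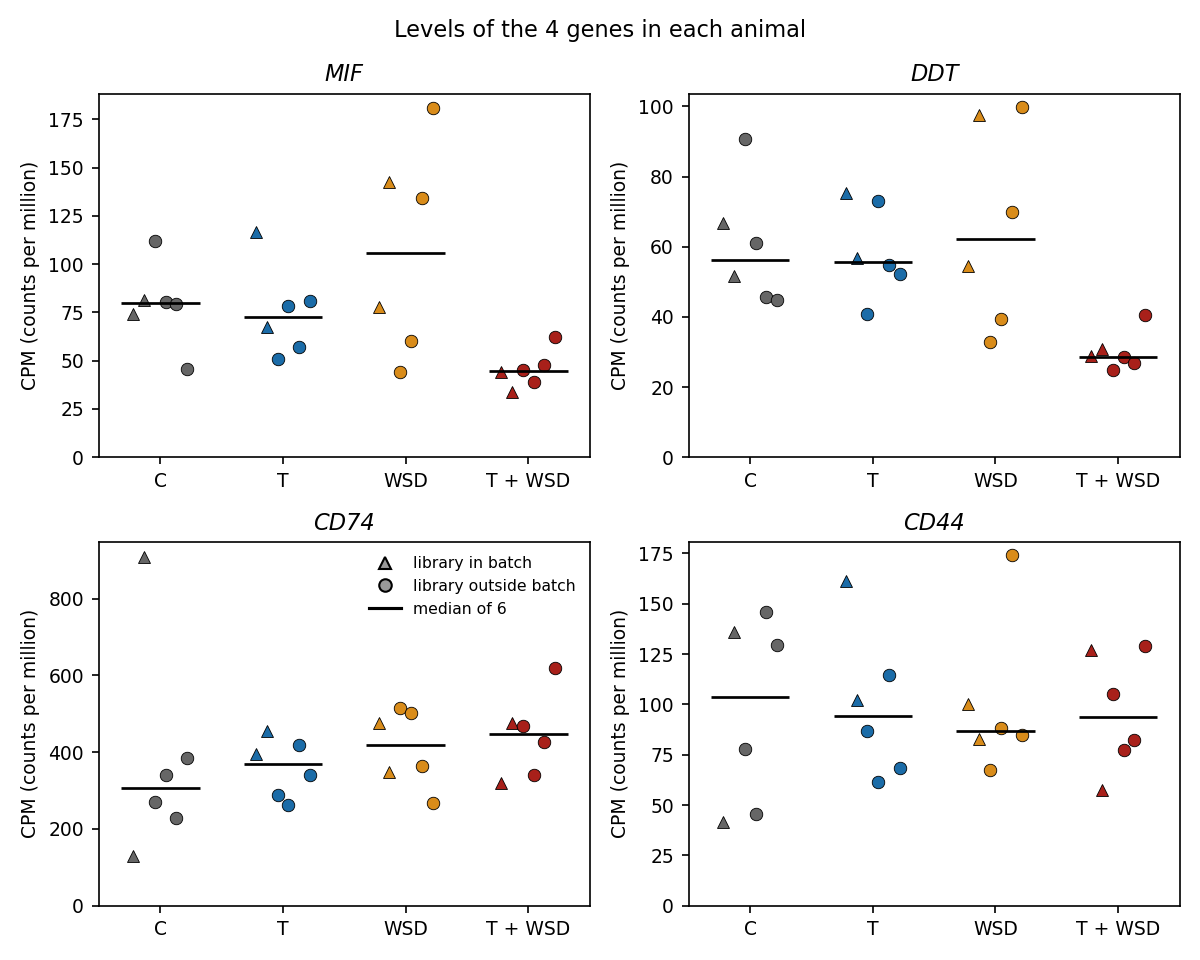
Level of *MIF*, *DDT*, *CD74* and *CD44* in CPM (vertical axis, from 0) in each of the 24 animals by group (horizontal axis). Each point is 1 animal, triangles are the 8 libraries of the batch, and bars are medians of 6 animals. The *T* + *WSD* animals sit between 24.9 and 40.6 CPM for *DDT*, below every *C* animal, while the groups overlap for *CD74* and *CD44*.

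The ratio of *DDT* to *MIF* in the same animal was compared between groups on the log2 scale, where gene length cancels. It ran from −0.79 to −0.02 in *C*, from −0.63 to −0.06 in *T*, from −0.94 to −0.43 with the diet alone and from −0.85 to −0.14 in *T* + *WSD*. Its mean was −0.39 ± 0.29 (SD, n = 6) in *C*, −0.33 ± 0.25 in *T*, −0.65 ± 0.20 with the diet alone and −0.59 ± 0.27 in *T* + *WSD*. All 4 ranges overlapped. The ratio was not tested.

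The ligands varied together among animals of the same group, a relation that the group means do not enter. After subtraction of each group's mean log2 CPM, *MIF* and *DDT* had a Pearson r of 0.871 over the 24 animals (two-sided permutation within groups, p = 1e-05, the smallest that 100000 resamples allow, adjusted p = 0.00018 over 18 relations computed) and a Spearman rho of 0.762 (permutation p = 0.00049, adjusted p = 0.00441). Without the 2 animals farthest from the median of *MIF*, r was 0.870. Outside the batch r was 0.903 over 16 animals (permutation p = 0.00098), which also passed the adjustment. Within the batch r was 0.770 over 8 animals (exact permutation p = 0.5), where the 16 possible arrangements allow no p under 0.125. By group, r was 0.736 in *C* and 0.808 in *T*, beside 0.977 in *WSD* and 0.525 in *T* + *WSD*, each over 6 animals and without a test. The animal with the lowest *MIF* also had the lowest *DDT* in *C* (replicate 6), *T* (replicate 15) and *WSD* (replicate 21), and the animal with the highest *MIF* had the highest *DDT* in all 4 groups (replicates 3, 13, 24 and 12).

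**Figure D2:**
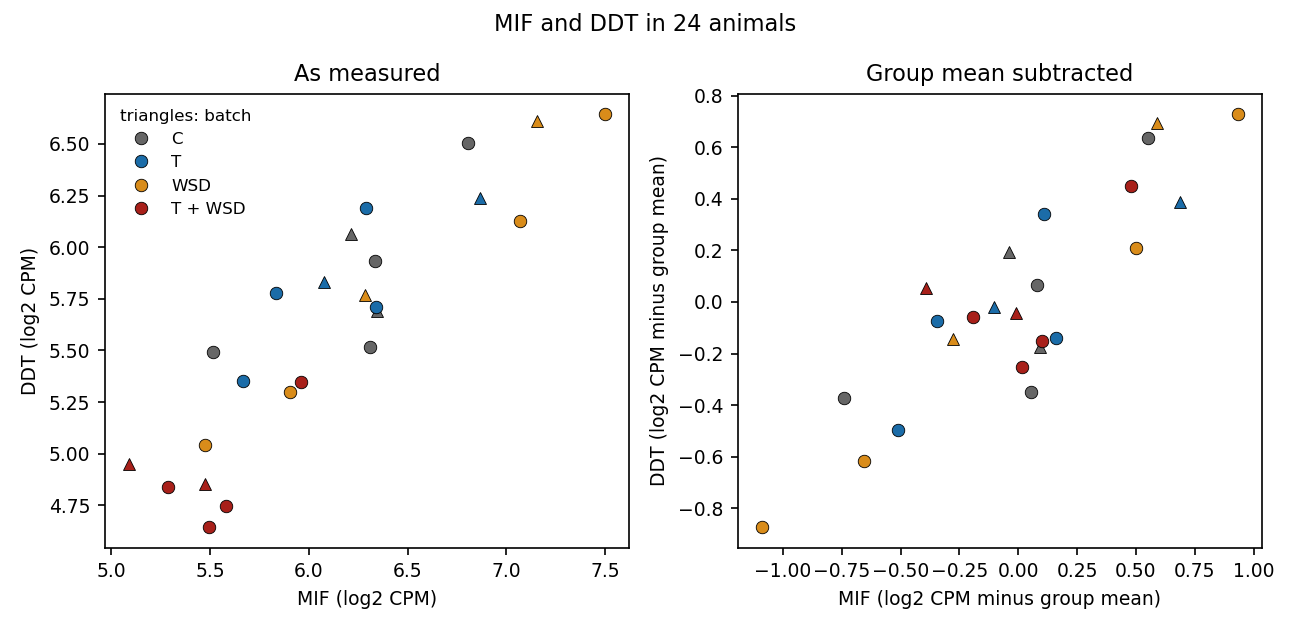
Log2 CPM of *DDT* (vertical axes) against *MIF* (horizontal axes) in 24 animals, as measured and after subtraction of each group's mean. Points are animals coloured by group, and triangles mark the batch. The relation seen within groups (r = 0.871) has animals of all 4 groups along it.

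Each ligand was the gene most like the other. Over the 24 animals, group differences included, *MIF* had the highest Pearson r with *DDT* of 15206 other tested genes, at 0.902, and *DDT* had the highest r with *MIF*. They also ranked first for each other within groups (r = 0.871), where the group differences do not enter. Next after *MIF*, the genes most like *DDT* were *ATP5MC2* (r = 0.880), *OLA1* (0.877), *MRPS30* (0.876), *RPS2* (0.873), *RPL36*, *AGBL5*, *CCT4*, *APEH* and *YWHAQ* (0.838). For *MIF*, the genes after *DDT* were *OLA1* (r = 0.872), *CCT8* (0.867), *CCT3* (0.855), *MPC1* (0.853), *CCT4*, *CCT7*, *PSMD8*, *ISOC2* and *MRPL47* (0.840). The most opposite patterns belonged to *SH3D19* (r = −0.889), *SPTBN1* and *SBF2* for *DDT*, and to *LRRN2* (−0.871), *LIMS2* and *CDKN1C* for *MIF*. The r values over the 24 animals include the group differences on which *MIF* and *DDT* were selected, so the first rank there in part restates that selection. They describe animals that share groups and batch, and carry no p.

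*MIF* had an r over 0.8 with 4 of the 8 subunits of TRiC, the chaperonin that folds actin and tubulin, and a median r of 0.810 with all 8, against a median of 0.03 with all tested genes. The median r of *DDT* with the same subunits was 0.713. With the 61 cytosolic ribosomal proteins tested, the median r was 0.449 for *MIF* and 0.635 for *DDT*, with 48 respiratory chain subunits it was 0.593 and 0.540, and with 32 proteasome subunits 0.618 and 0.464. The TRiC subunits had a median log2 fold change of −0.41 in *T* + *WSD* against *WSD*, with all 8 negative, and the median over all tested genes was −0.03. None of the 8 was called in that contrast by edgeR or by DESeq2, and all 8 had an unadjusted p under 0.05 (20% of all tested genes did). Against *C* and against *T* the TRiC median was −0.22 and −0.21, with none of the 8 called. The ribosomal proteins had a median of −0.46 in *T* + *WSD* against *C*, beside −0.04 over all tested genes, with 10 of 61 called lower, as 5.29% of all tested genes were. These calls were not counted again outside the batch, where 0.505% of all genes were called against *C*. Against *WSD* and *T* the median of the ribosomal proteins was −0.29 and −0.30, with 0 of 61 called in each. In these 2 contrasts 36 and 41 of the 61 had an unadjusted p under 0.05 (20% and 25.9% of all tested genes did). The respiratory chain subunits had a median of −0.57 against *WSD*, where edgeR called 5 of 48 lower (0.381% of all tested genes were). DESeq2 called 14 in that contrast (2.55% of the genes it tested). Outside the batch edgeR called 0% of all genes there, so none of the 5 calls held. With the mean of the mesothelial markers as a covariate, 1 of all 15207 tested genes was called. The median of the subunits against *WSD* ran from −0.62 to −0.47 over the other settings. It was −0.14 against *C* and −0.22 against *T*, where 0 were called. In *WSD* against *C* these subunits had a median of 0.45, with 47 of 48 above 0. There edgeR called 0 of 48, DESeq2 called 2 (1.59% of the genes it tested) and 30 had an unadjusted p under 0.05 (18.5% of all tested genes). Replicates 20 and 24 of *WSD* stood apart from its other animals, at a summed 8553 and 7823 CPM against 3984 to 5005. The levels of these other animals overlapped those of *C*, which ran from 2523 to 4705 CPM. The proteasome subunits had a median of −0.31 against *WSD*, −0.15 against *C* and −0.12 against *T*, with 0 of 32 called in each. In the same order 21, 7 and 5 of them had an unadjusted p under 0.05 (20%, 32.1% and 25.9% of all tested genes did). In *WSD* against *C* their median was 0.19, with 0 of 32 called and 15 with an unadjusted p under 0.05 (18.5% of all tested genes). The r values of this paragraph include the group differences on which *MIF* and *DDT* were selected. Within groups the medians for *MIF* and *DDT* were lower, at 0.714 and 0.602 with the TRiC subunits, 0.234 and 0.462 with the ribosomal proteins, 0.477 and 0.473 with the respiratory chain subunits and 0.487 and 0.378 with the proteasome subunits, beside 0.0191 and 0.00898 with all tested genes.

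*MIF* and *DDT* lie close together in the genome, with *MIR7191* the only named gene between them in the RefSeq annotation of the rhesus assembly T2T-MMU8v2.0. Genes without a symbol or with a provisional LOC symbol were left out of this order. The 3 nearest named genes before *MIF* were *SMARCB1*, *DERL3* and *SLC2A11*, and the 3 after *DDT* were *GSTT2B*, *GSTT1* and *GSTT4*, of which *SLC2A11*, *GSTT1* and *GSTT4*, as well as *MIR7191*, had no match in the table. *SMARCB1*, a chromatin remodelling subunit, had a median of 27.9 CPM in *C* and 20.4 CPM in *T* + *WSD*, with all 6 *T* + *WSD* animals below every *C* animal, as in 4.12% of tested genes. Its log2 fold change was −0.45 (adjusted p = 0.0251), a change under the fold threshold of 1.5. *DERL3* (−0.37, adjusted p = 0.521) and *GSTT2B* (0.36, adjusted p = 0.710) did not pass. *DDTL*, a copy of *DDT*, had between 0 and 16 counts per library and did not pass the filter.

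The receptor *CD74* was at 130, 305 and 908 CPM in the lowest, median and highest *C* animal. In *T* it was at 263, 368 and 456 CPM. The 2 extreme values belonged to replicates 1 and 2 of *C*, both in the batch, so that the control range of *CD74* contained every animal of the other groups. In *WSD* the lowest, median and highest levels of *CD74* were 268, 419 and 515 CPM. In *T* + *WSD* they were 320, 446 and 620 CPM. All 6 *T* + *WSD* animals lay above the *C* median and none above every *C* animal.

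A gene was called when its edgeR adjusted p over all 15207 tested genes was under 0.05 and its fold change over 1.5 (for the interaction, an adjusted p under 0.1). *CD74* was not called in any contrast. Its log2 fold change against *C* was −0.06 in *T* (adjusted p = 0.978), 0.13 in *WSD* (adjusted p = 0.862) and 0.23 in *T* + *WSD* (adjusted p = 0.659), where the 95% interval of the fit ran from −0.41 to 0.87. In *T* + *WSD* it was 0.10 against *WSD* (adjusted p = 0.893) and 0.29 against *T* (adjusted p = 0.588), and the interaction term was 0.16 (adjusted p = 0.933). Replicate 2 of *C* decided the contrast of *T* + *WSD* with *C*, since without it the log2 fold change of *CD74* was 0.73 (adjusted p = 0.0405). Outside the batch, where that animal is not included, it was 0.62 against *C* (adjusted p = 0.167) and 0.51 against *T* (adjusted p = 0.204). In the order of the means, *T*, *C*, *WSD* and *T* + *WSD*, no neighbours differed by more than the SD of either group.

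The coreceptor *CD44*, a receptor for hyaluronan, was at 41.7, 104 and 146 CPM in the lowest, median and highest *C* animal. In *T* it was at 61.3, 94.4 and 162 CPM, and in *WSD* at 67.6, 86.6 and 174 CPM. In *T* + *WSD* it was at 57.4, 93.7 and 129 CPM. The 4 groups overlapped almost fully, with means from 96.1 ± 46.9 CPM (SD, n = 6) in *C* to 99.7 ± 37.9 in *WSD*, so their order carries no difference beyond the spread. The log2 fold change of *CD44* in *T* + *WSD* against *C* was 0.01 (adjusted p = 0.989), with a 95% interval from −0.64 to 0.66. Its other contrasts between groups lay between −0.05 and 0.06, its interaction term was −0.09 (adjusted p = 0.972), and none was called. The lower level of both ligands in *T* + *WSD* was thus measured beside a receptor and a coreceptor for which no difference was detectable with 6 animals per group. For *CD74* against *C* this depended on 1 animal, since it passed without replicate 2 of *C* (log2 fold change 0.73, edgeR adjusted p = 0.0405).

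Among animals of a group, the coreceptor varied with the macrophage markers, and for the receptor the same relation did not pass. *CD44* had a within-group r of 0.835 with the mean log2 CPM of 11 macrophage markers (permutation p = 3e-05, adjusted p = 0.00027) and a rho of 0.843 (permutation p = 1e-05, adjusted p = 0.00018). Without the 2 animals farthest from the median of *CD44* r was 0.789, outside the batch it was 0.727 (permutation p = 0.0072, adjusted p = 0.0601), which did not pass with 16 animals, and within the batch it was 0.945 over 8 animals (exact permutation p = 0.125, the smallest possible). For *CD74* the r with these markers was 0.636 (permutation p = 0.0102, adjusted p = 0.0610) and rho 0.511 (permutation p = 0.0236, adjusted p = 0.141), which did not pass the adjustment over the 18 relations. Without the 2 extreme animals, replicates 1 and 2 of *C*, the r of *CD74* was 0.376, so that the relation rested on those animals, and it was 0.767 within the batch and 0.438 outside it.

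**Figure D3:**
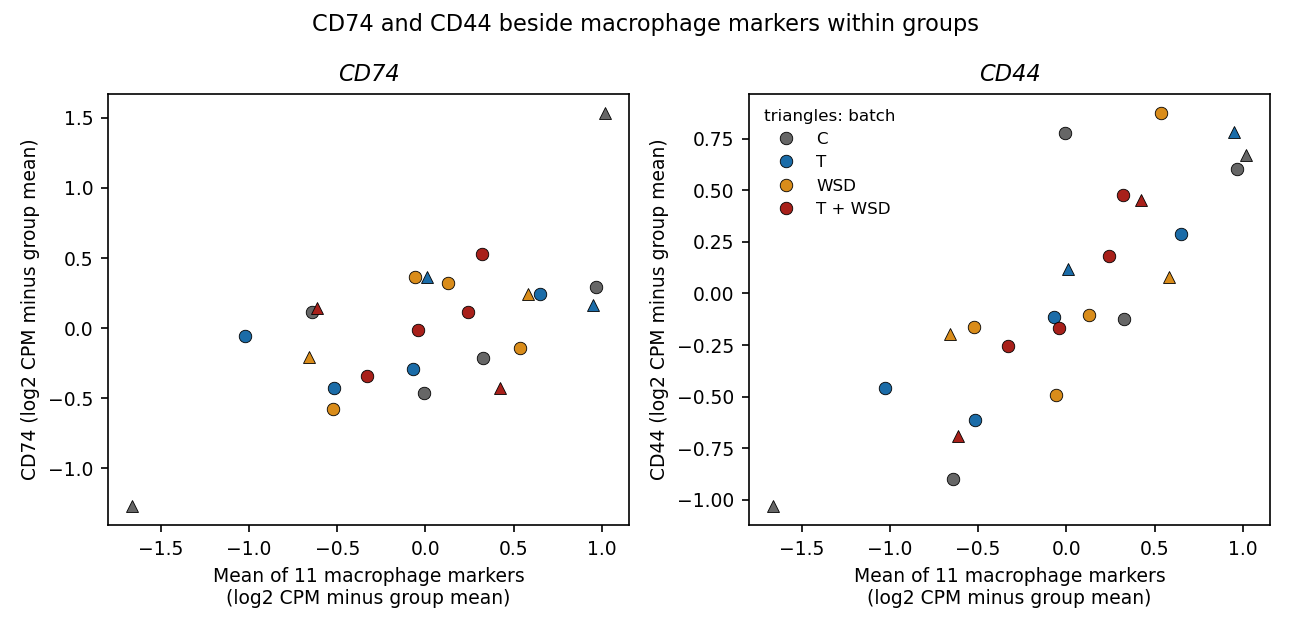
Log2 CPM of *CD74* and *CD44* (vertical axes) against the mean log2 CPM of 11 macrophage markers (horizontal axes) in 24 animals, after subtraction of each group's mean. Points are animals coloured by group, and triangles mark the batch. For *CD44* (r = 0.835) the animals of all groups lie along 1 band, while for *CD74* (r = 0.636) replicates 1 and 2 of *C* stand at its ends.

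No relation between a ligand and its receptor passed. Within groups, *MIF* had an r of −0.212 with *CD74* (permutation p = 0.309, adjusted p = 0.541, rho −0.311, permutation p = 0.163) and of 0.197 with *CD44* (permutation p = 0.368, adjusted p = 0.543, rho 0.134, permutation p = 0.551). *DDT* had an r of −0.298 with *CD74* (permutation p = 0.168, adjusted p = 0.394, rho −0.328, permutation p = 0.151) and of −0.0400 with *CD44* (permutation p = 0.859, adjusted p = 0.859, rho −0.130, permutation p = 0.571). *CD74* and *CD44* had an r of 0.394 with each other (permutation p = 0.175, adjusted p = 0.394, rho 0.306, permutation p = 0.192). By group the r values differed in sign. In *C*, *T*, *WSD* and *T* + *WSD*, each over 6 animals and without a test, r was −0.0821, 0.128, −0.950 and 0.517 for *MIF* with *CD74*, −0.332, 0.0876, −0.923 and 0.602 for *DDT* with *CD74*, −0.261, 0.316, 0.405 and 0.793 for *MIF* with *CD44*, −0.611, 0.226, 0.264 and 0.276 for *DDT* with *CD44*, and 0.550, 0.702, −0.209 and 0.0855 for the receptor with the coreceptor. The pooled values average over these. Outside the batch these 5 relations had r values of −0.527, 0.0739, −0.406, −0.0135 and 0.0614 in the same order, and within it −0.113, 0.352, −0.493, −0.320 and 0.650. Without the 2 extreme animals of the first gene in each pair they were −0.102, 0.207, −0.295, −0.0365 and 0.0656.

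Of the other MIF receptors and their ligands, 3 of 5 had a match in the table, and *ACKR3* and *CXCL8* had none. *CXCR2* stood at a median of 1.46 CPM in *C* and 1.56 CPM in *T* + *WSD*, *CXCR4* at 14.7 and 17.05 CPM, and *CXCL12*, the other ligand of CXCR4, at 78.2 and 97.1 CPM. The groups overlapped for all 3. In *T* + *WSD* against *C* edgeR called none of them, none had an unadjusted p under 0.05, as 32.1% of all tested genes did, and DESeq2 called none. Their log2 fold changes in that contrast were 0.18 for *CXCR2* (adjusted p = 0.724), 0.39 for *CXCR4* (adjusted p = 0.378) and 0.24 for *CXCL12* (adjusted p = 0.484).

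The wider network of the 4 genes was described with 7 lists of receptors, binding and export partners, CD74 processing, signalling, CD44 ligands and partners, glucocorticoid genes and regulators of *MIF*, of which 66 of 80 genes were tested. In *T* + *WSD* against *C*, 10 of the 66 were called, 7 higher and 3 lower, against 10% of all tested genes called, 4.72% higher and 5.29% lower. In *T* + *WSD* against *T*, 7 were called, against 3.77% of all genes, and in *T* + *WSD* against *WSD* 1 was called, against 0.815%. The single treatments gave no calls in edgeR. For *T* against *C*, where 0% of all genes were called, 2 of the 66 had an unadjusted p under 0.05 (8.63% of all genes did) and DESeq2 called 0 (0.0503% of the genes it tested). For *WSD* against *C*, where 0% of all genes were also called, 8 had an unadjusted p under 0.05 (18.5% of all genes did) and DESeq2 called 2 (1.59% of the genes it tested). For the interaction, where 0.809% of all genes were called, none of the 66 was called by edgeR or DESeq2 and 5 had an unadjusted p under 0.05 (13.5% of all genes did), while DESeq2 called 2.78% of the genes it tested. The median log2 fold change of the 66 in *T* + *WSD* against *C* was 0.05, beside −0.04 over all tested genes. Outside the batch *EPAS1* was the only 1 of the 10 calls against *C* that held, with 0.505% of all genes called, and none of the 7 against *T* held, with 1.99% of all genes called. There the mean log2 difference against *C* was 0.68 for *ABCA1*, 0.69 for *LGMN*, −0.61 for *SRC*, 0.45 for *PIK3R1* and −1.38 for *PTGS2*. It was 0.78 for *BCL2*, 2.38 for *SPP1*, −1.68 for *EZR*, 1.21 for *HSD11B1* and 0.91 for *EPAS1*. Against *T* it was 0.97 for *HTRA1*, 0.78 for *LGMN*, −0.50 for *SRC* and 0.73 for *PIK3R1*. For *SPP1*, *EZR* and *EPAS1* it was 3.01, −1.43 and 0.41. With the mesothelial mean as a covariate no call of the 3 contrasts of *T* + *WSD* held, and 0% of all genes were called against *C* and against *T*. The log2 fold change of *SPP1* was still from 2.07 to 2.51 against *C* and from 2.37 to 3.13 against *T* over all 7 other settings, that one included, and that of *HTRA1* from 0.91 to 0.97 against *T*. With the covariate that of other genes shrank, to 0.46 for *ABCA1* against *C*, to 0.62 and 0.67 for *LGMN* against *C* and *T*, to 0.51 for *PIK3R1* against *T* and to the values given below. The calls were also repeated in 24 fits, each without 1 animal, and the number of these fits in which a call held is given below for each gene that lost it in any.

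Among the partners, 1 of 10 was called in *T* + *WSD* against *C*, the same share as among all tested genes (10%). This was *ABCA1*, the cholesterol exporter through which MIF leaves cells, which had a median of 294 CPM in *C* and 320 in *T*, beside 496 in *WSD* and 482 in *T* + *WSD*. All 6 *T* + *WSD* animals lay above every *C* animal, as did 3.49% of tested genes, and the log2 fold change was 0.71 (adjusted p = 0.0167). In *WSD* against *C* the log2 fold change of *ABCA1* was 0.75, which did not pass in edgeR (adjusted p = 0.131) and passed in DESeq2 (adjusted p = 0.0224). *HTRA1*, a secreted protease that binds MIF, ran from 177 to 337 CPM in *T* and from 387 to 558 CPM in *T* + *WSD*. It rose in *T* + *WSD* against *T*, by 0.94 (adjusted p = 0.0261, held in 20 of 24 fits). Against *C* it was 0.61, which did not pass (adjusted p = 0.0787), with 5 of 6 *T* + *WSD* animals above every *C* animal.

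In the processing of CD74 and the MHC class II molecules it escorts, 1 of 12 genes was called in *T* + *WSD* against *C* (10% of all tested genes were). *LGMN*, a lysosomal protease that takes part in cutting the invariant chain, ran from 127 through 239 to 474 CPM in *C* and from 343 through 432 to 838 CPM in *T* + *WSD*. Every *T* + *WSD* animal was above every *T* animal, as in 2.99% of tested genes, but only 2 of 6 were above every *C* animal. The log2 fold change of *LGMN* was 0.88 against *C* (adjusted p = 0.0163, held in 23 of 24 fits) and 0.91 against *T* (adjusted p = 0.0299, held in 18 of 24 fits). With only the compared groups fitted, *LGMN* lost its call against *C*. The median over the 12 genes was 0.11 against *C*, and it ran from −0.064 to 0.54 with 1 animal left out and from −0.25 to 0.44 over the other settings, so that its direction was not settled.

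Of the 17 signalling genes, 4 were called in *T* + *WSD* against *C*, 2 in each direction (4.72% of all tested genes were called higher and 5.29% lower). *SRC*, a kinase activated after MIF binds CD74 and CD44, ran from 35.6 to 69.8 CPM in *C* and from 21.8 to 31.7 CPM in *T* + *WSD*. All 6 *T* + *WSD* animals lay below every *C* and every *T* animal, as in 4.12% and 3.10% of tested genes, and *SRC* fell by 0.81 on the log2 scale against *C* (adjusted p = 0.00476) and by 0.60 against *T* (adjusted p = 0.0377), where the call held in 13 of 24 fits and in 2 of 7 other settings. With the mesothelial covariate *SRC* was at −0.22 against *C* and −0.086 against *T*. *PTGS2*, the inducible prostaglandin synthase, ran from 5.62 to 72.5 CPM in *C* and from 2.75 to 9.07 CPM in *T* + *WSD*, with a log2 fold change of −2.34 (adjusted p = 0.0223, held in 23 of 24 fits). Without replicate 1 of *C*, which stood at 72.5 CPM, it was −1.52 (adjusted p = 0.112), outside the batch −1.42 and with the covariate −0.90. *PIK3R1*, a regulatory subunit of PI3 kinase, rose by 0.65 against *C* (adjusted p = 0.0317, held in 19 of 24 fits) and by 0.91 against *T* (adjusted p = 0.0159), and *BCL2*, an inhibitor of apoptosis, rose by 0.78 against *C* (adjusted p = 0.0321, held in 17 of 24 fits). Against *C* the covariate left 0.20 for *PIK3R1* and 0.18 for *BCL2*, and *PIK3R1* also lost its call with no filter and *BCL2* with only the compared groups fitted. For *PIK3R1* 5 of 6 and for *BCL2* 3 of 6 *T* + *WSD* animals lay above every *C* animal.

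Among 12 genes for CD44 ligands and partners, 2 were called in *T* + *WSD* against *C* (10% of all tested genes were). *EZR*, which encodes ezrin, a link between the CD44 tail and actin, ran from 315 to 1088 CPM in *C* and from 234 to 541 in *T*, beside from 93.2 to 533 in *WSD* and from 45.5 to 187 in *T* + *WSD*. It was the only gene of the network called in all 3 contrasts of *T* + *WSD*, with log2 fold changes of −2.17 against *C* (adjusted p = 0.00294), −1.65 against *T* (adjusted p = 0.0151) and −1.50 against *WSD* (adjusted p = 0.0370). The call of *EZR* against *WSD* held in 13 of 24 fits and in 3 of 7 other settings, and of the 12 animals compared it was kept only without replicate 21 of *WSD*. With the mesothelial covariate *EZR* was at −0.40 against *C*, −0.14 against *T* and −0.33 against *WSD*. *SPP1*, which encodes osteopontin, a secreted ligand of CD44, ran from 1.64 to 33.6 CPM in *C* and from 15.5 to 122 CPM in *T* + *WSD*. Its log2 fold change was 2.47 against *C* (adjusted p = 0.0220, held in 22 of 24 fits) and 2.53 against *T* (adjusted p = 0.0401, held in 14 of 24 fits and lost with no filter), and 3 of 6 *T* + *WSD* animals lay above every *C* animal. *MSN*, a relative of *EZR* and the most abundant gene of this list by counts, was not called, with medians of 478 CPM in *C* and 537 CPM in *T* + *WSD* (log2 fold change 0.20, adjusted p = 0.332).

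Among 6 glucocorticoid genes, 1 was called in *T* + *WSD* against *C*, and among 6 regulators of *MIF* transcription, also 1 (10% of all tested genes were). *HSD11B1*, the enzyme that regenerates active glucocorticoid, ran from 0.281 to 5.58 CPM in *C* and from 5.86 to 10.7 CPM in *T* + *WSD*, with no overlap, as in 3.49% of tested genes, and rose by 1.42 (adjusted p = 0.0410). That call held in 15 of 24 fits and in 4 of 7 other settings, and the value fell to 0.56 with the mesothelial covariate. *ANXA1*, a glucocorticoid-induced gene, was not called (log2 fold change 0.37, adjusted p = 0.180). *EPAS1*, which encodes the hypoxia factor HIF-2α, ran from 233 to 380 CPM in *C* and from 304 to 495 in *T*, beside from 413 to 684 in *WSD* and from 559 to 880 in *T* + *WSD*. It rose by 1.02 in *T* + *WSD* against *C* (adjusted p = 0.00226) and by 0.61 against *T* (adjusted p = 0.0262, held in 22 of 24 fits and lost with no filter). With the covariate *EPAS1* was at 0.49 against *C* and 0.14 against *T*. In *WSD* against *C* its log2 fold change was 0.73, which did not pass in edgeR (adjusted p = 0.0952) and passed in DESeq2 (adjusted p = 0.00361). Of the 9 small redox and tautomerase-like enzymes tested as relatives in function, 1 was called in *T* + *WSD* against *C*, where 10% of all tested genes were, *GSTO1* (−0.62, adjusted p = 0.0387), and the most abundant by counts, *GSTP1*, was not (−0.15, adjusted p = 0.396).

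**Figure D4:**
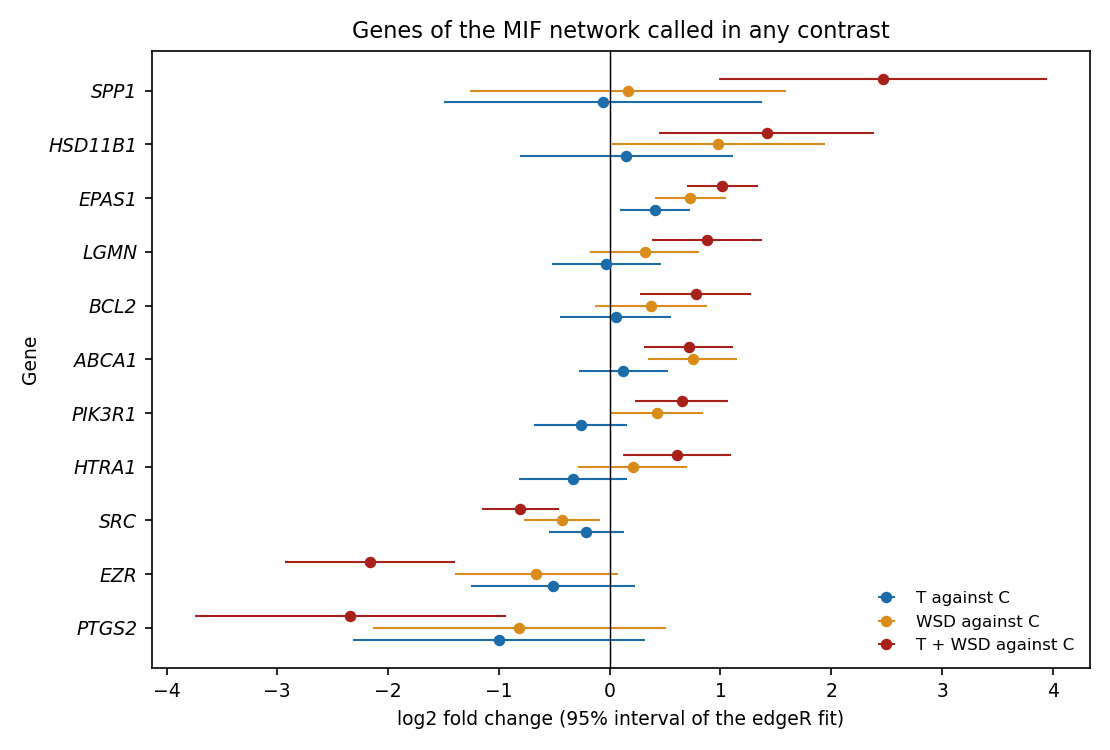
Log2 fold change (horizontal axis) against *C* of the 11 network genes called in any contrast, for *T*, *WSD* and *T* + *WSD*. Points are edgeR estimates and lines are 95% intervals. *SPP1* lies highest at 2.47 and *PTGS2* lowest at −2.34 in *T* + *WSD*, and the 3 contrasts share the control animals.

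Cell type markers were set beside these values, since fewer cells of a type and less RNA per cell cannot be told apart in bulk tissue. Mesothelial cells line the surface of the omentum, and 8 of the 11 mesothelial markers tested were called lower in *T* + *WSD* against *C*, as 5.29% of all tested genes were, with a median log2 fold change of −2.36. Their summed level ran from 965 to 4140 CPM in *C* and from 716 to 1893 in *T*, beside from 206 to 1241 in *WSD* and from 66.7 to 496 in *T* + *WSD*. *MSLN* was the most abundant by counts, with a median of 279 CPM in *C* and 61.6 CPM in *T* + *WSD*, and *KRT7* was at 0 in some animals. The mean log2 difference of *MSLN* between *T* + *WSD* and *C* was −4.09 within the batch and −2.03 outside it. The 8 calls were not counted again outside the batch, where 0.505% of all genes were called against *C*. *UPK1B* and *LRRN4* had no match. Against *T* 7 of the 11 were called lower, as 1.43% of all tested genes were, and against *WSD* edgeR called none, 7 had an unadjusted p under 0.05 (20% of all tested genes did) and DESeq2 called 4 (2.55% of the genes it tested).

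Within *WSD*, replicate 21 had the lowest summed mesothelial level, 206 CPM, as well as the lowest *MIF* and *DDT*, and replicate 24 had the highest of all 3. Replicate 20 had the second lowest mesothelial level, 476 CPM, and the second highest *MIF* (142 CPM) and *DDT* (97.6 CPM). Over all groups, the within-group r with the mesothelial mean was 0.455 for *MIF* (permutation p = 0.0443, adjusted p = 0.199, rho 0.283, permutation p = 0.215) and 0.246 for *DDT* (permutation p = 0.331, adjusted p = 0.541, rho 0.163, permutation p = 0.488), and neither passed. Outside the batch these r values were 0.535 and 0.374, within it 0.106 and −0.0415, and without the 2 extreme animals of each ligand 0.328 and 0.330. With the mesothelial mean as a covariate in the fit, the log2 fold change of *MIF* in *T* + *WSD* was −0.13 against *C* and −0.74 against *WSD*, and that of *DDT* was −0.73 against *C* and −0.93 against *WSD*. In that fit edgeR called 0 of 15207 genes in *T* + *WSD* against *C*. The summed mesothelial levels of these 2 groups do not overlap, so the covariate and the group cannot be told apart in that contrast.

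**Figure D5:**
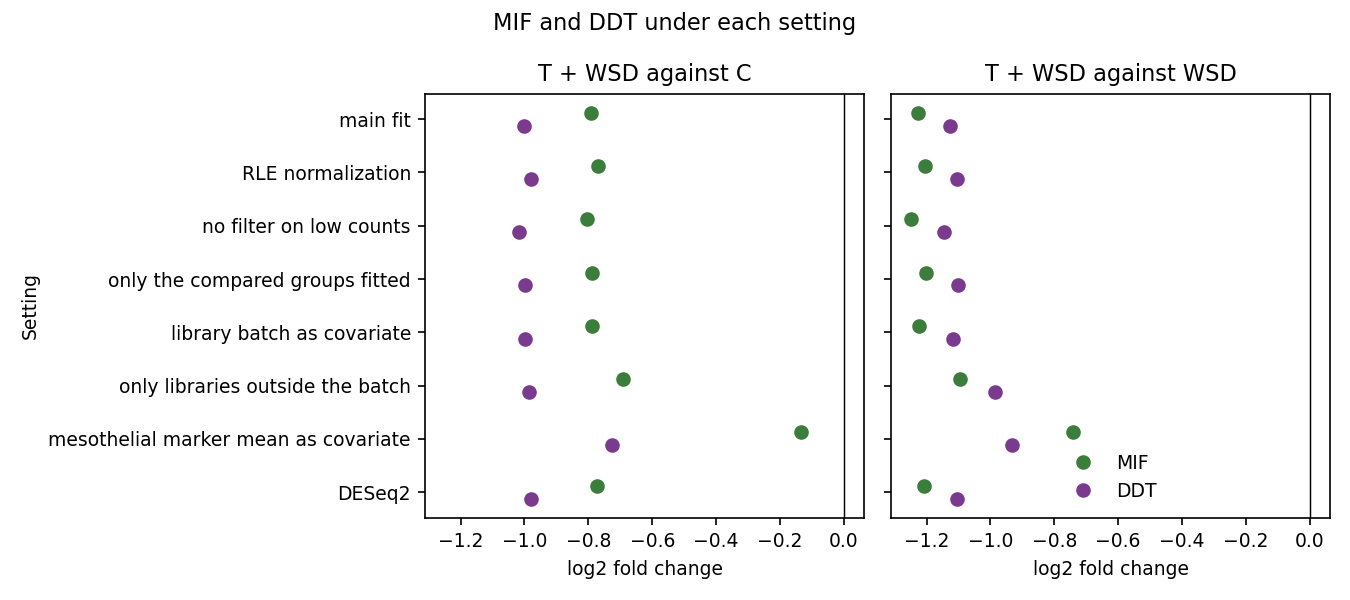
Log2 fold change of *MIF* and *DDT* (horizontal axes) in *T* + *WSD* against *C* and against *WSD* in the main fit and under each other setting (vertical axis). Points are estimates. With the mesothelial mean as a covariate the *MIF* value against *C* is −0.13 and the *DDT* value −0.73, and the other settings stay near the main fit.

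The remaining markers moved less in *T* + *WSD* against *C*, where 4.72% of all tested genes were called higher and 5.29% lower. Of 11 macrophage markers 1 was called, *MSR1*, which was higher, and their summed level ran from 241 to 1352 CPM in *C* and from 663 to 1243 CPM in *T* + *WSD*, with *CSF1R* the most abundant by counts. Of 10 endothelial markers 6 were called higher, with *VWF* the most abundant by counts and a summed level from 1051 to 1749 CPM in *C* and from 1968 to 3047 CPM in *T* + *WSD*. The mean log2 difference of *VWF* was 1.78 within the batch and 0.66 outside it, where the calls of these marker lists were not counted again. Single genes were called among 6 dendritic (*CLEC10A*, higher), 5 B and plasma cell (*BANK1*, higher), 11 adipocyte (*LEP*, higher) and 9 fibroblast markers (*DPP4*, lower). The lists did not move as 1 with these genes. The log2 fold change was below 0 for 2 of 6 dendritic and 3 of 5 B and plasma cell markers (medians 0.07 and −0.07). It was below 0 for 6 of 9 fibroblast and 4 of 11 macrophage markers (medians −0.26 and 0.26). The adipocyte markers had a median log2 fold change of 0.54, with 1 of 11 below 0. Of these 11, 4 had an unadjusted p under 0.05 (32.1% of all tested genes did). Their summed level ran from 2288 to 19624 CPM in *C* and from 17379 to 26172 CPM in *T* + *WSD*. The lowest *C* level was that of replicate 1, and the next, in replicate 3, was 11775 CPM. Replicate 1 also had the lowest macrophage level of *C*, with 491 CPM in the next animal. Of 6 T and NK cell markers edgeR and DESeq2 called none and none had an unadjusted p under 0.05. No macrophage, adipocyte, endothelial or fibroblast marker was at 0 in any animal. The part of these cell types in the group differences of *MIF* and *DDT* was not tested.

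*MIF* had within-group r values of −0.0712 with the macrophage mean (permutation p = 0.741, adjusted p = 0.784, rho −0.0835, permutation p = 0.715) and −0.122 with the adipocyte mean (permutation p = 0.525, adjusted p = 0.675, rho −0.229, permutation p = 0.297). *DDT* had r values of −0.187 (permutation p = 0.392, adjusted p = 0.543, rho −0.217, permutation p = 0.347) and −0.257 (permutation p = 0.232, adjusted p = 0.465, rho −0.372, permutation p = 0.0839) with the same means. Outside the batch the r of *DDT* with the adipocyte mean was −0.639 (permutation p = 0.01, adjusted p = 0.0601, which did not pass), within it −0.210 and without the 2 extreme animals −0.254. The remaining 4 relations, of *CD74* and *CD44* with the mesothelial and adipocyte means, had adjusted p values from 0.276 to 0.733. The endothelial markers were not among the 18 relations. Their median r within groups was −0.468 with *MIF* and −0.450 with *DDT*, farther from 0 than the medians of the mesothelial (0.349 and 0.194), macrophage (−0.108 and −0.181) and adipocyte markers (−0.128 and −0.155), and it was not tested. Of the 18 relations, those of *MIF* with *DDT* and of *CD44* with the macrophage mean were the only 2 that passed over the 24 animals.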

How the data were processed

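RNA was measured in 24 libraries, 1 per animal, in 4 groups of 6 taken from the labels. The authors depleted ribosomal RNA, trimmed reads with Trimmomatic 0.36, aligned them to rheMac8 with STAR 2.5.2b and deposited raw counts per gene, not normalized. The counting tool and its strand setting are not given in the sources used here. If strand was ignored, reads from *MIF* and from a transcript antisense to it, as known in other species, cannot be told apart in its counts. The deposited counts were filtered (filterByExpr, minimum count 10, minimum total 15, 15207 of 32386 genes kept), scaled with TMM and fitted with edgeR 4.0.16 (glmQLFit, robust, 4 groups in 1 fit) in R 4.3.3, with Benjamini-Hochberg adjustment over all tested genes. CPM and log2 CPM (prior count 2) were computed from the same scaled totals. Intervals of the fit are 95% intervals.

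The members and the gene lists were chosen with earlier results of these data known. Symbols came from a gene name table and, where it had none, from the study's supplementary tables. Genes named are the 4 members, the other MIF receptors and their ligands, every network gene called in any contrast, the most abundant gene of each list, the 10 genes most like and 3 least like *MIF* and *DDT*, and their 3 nearest named neighbours on each side. A planned list of the 5 least like was cut to 3, since 1 result in it is not reported here. *GSTO1*, *FABP4* and the single markers called in a list were named after their values were seen.

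Within-group relations used log2 CPM minus the group mean, with 100000 two-sided permutations within groups and adjustment over 18 relations. For the 8 libraries of the batch all 16 arrangements were used. Alternatives were DESeq2 1.42.0, its size factors (RLE), no filter, only the compared groups, the library batch as a covariate or left out, the mesothelial mean as a covariate, and each animal left out. For relations they were RLE, variance-stabilized values, a prior count of 0.5, the batch mean removed, only libraries outside the batch, and the 2 extreme animals left out. The fit and the permutation test were tested on simulated data. Total counts ran from 6899185 to 28270776 per library, and *MIF* and *DDT* had at least 120 and 109 counts in every library. Levels were not compared between genes, since no gene lengths were used, and the most abundant gene of a list is named by counts only.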

Additional observations from a re-analysis of the deposited data

Results flagged for a closer look

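Dixon's ratio, the gap from an extreme animal to its nearest neighbour divided by the range of its group, was computed for 168 groups of 6 animals, and 19 exceeded Dixon's 95% critical value. Chance flags about 1 in 20 groups where the values are normally distributed, which was not checked for these CPM values. Several of the genes move together in the same animal, so the flags are not independent.

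Among the members, an animal far from the others was flagged for *CD74* and for *CD44*. *CD74* in replicate 2 of *C* was 908 CPM against 384 for the next animal, and *CD44* in replicate 23 of *WSD* was 174 CPM against 100.2 for the next. No animal was flagged for *MIF*, for *DDT* or for their ratio.

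Replicate 1 of *C* was far above its group for *PTGS2* (72.5 CPM), *EZR* (1088 CPM), *MSLN* (1709 CPM) and the summed mesothelial markers (4140 CPM). Replicate 8 of *T* + *WSD*, the library with the fewest counts, was far below its group for *SRC* (21.8 CPM) and *SMARCB1* (15.8 CPM) and far above it for *EPAS1* (880 CPM). Replicate 14 of *T* was far above its group for *SPP1* (33.3 CPM) and *HSD11B1* (7.54 CPM). In replicate 11 of *T* + *WSD*, *PTGS2* was high (9.07 CPM) and *MSN* low (431 CPM).

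The other animals set apart by their distance from the group were replicate 6 of *C* for *SPP1* (33.6 CPM), replicate 5 of *C* for *DDTL* (0.702 CPM), replicate 18 of *T* for *MSLN* (719 CPM), replicate 19 of *WSD* for *CXCL12* (124 CPM), replicate 12 of *T* + *WSD* for *HTRA1* (387 CPM, the lowest of its group) and replicate 9 of *T* + *WSD* for *GSTP1* (308 CPM). The cause of these distances was not tested.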

How the results depend on the processing

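The lower levels of *MIF* and *DDT* in *T* + *WSD* kept their direction in every setting. With 1 animal left out, the log2 fold change against *C* stayed between −0.91 and −0.66 for *MIF* and between −1.11 and −0.85 for *DDT*, and against *WSD* between −1.39 and −1.01 and between −1.27 and −0.96. With the mesothelial mean as a covariate, the *MIF* value moved by more than the spread between animals, to −0.13 against both *C* and *T*. That covariate does not overlap between *T* + *WSD* and either of these 2 groups, so less is left to compare there.

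*CD74* and *CD44* changed sign in several settings and passed in none but 1. Without *C* replicate 2, *CD74* passed in *T* + *WSD* against *C* (0.73, adjusted p = 0.0405). With 1 animal left out, *CD74* ran from −0.24 to 0.42 in *T* against *C*, from −0.046 to 0.62 in *WSD* against *C*, from 0.068 to 0.73 in *T* + *WSD* against *C*, from −0.023 to 0.18 against *WSD*, and from −0.31 to 0.36 for the interaction. In the same order of contrasts, *CD44* ran from −0.15 to 0.21, from −0.18 to 0.22, from −0.14 to 0.17, from −0.15 to 0.19 and, for the interaction, from −0.25 to 0.14, and against *T* from −0.14 to 0.16. With the mesothelial covariate *CD74* reversed in *WSD* against *C* (−0.047), in *T* + *WSD* against *C* (−0.28), *WSD* (−0.24) and *T* (−0.20) and in the interaction (−0.15), and *CD44* in *T* + *WSD* against *WSD* (0.11) and *T* (0.17) and in the interaction (0.066). Outside the batch *CD74* reversed in *T* against *C* (0.10) and was larger in *T* + *WSD* against *C* (0.62) and *T* (0.51), and *CD44* in *T* against *C* (−0.27), in *T* + *WSD* against *C* (−0.0022) and *T* (0.27) and in the interaction (0.20). Without the filter *CD44* was −0.0015 in *T* + *WSD* against *C*. The cause was not tested.

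The number of network genes called depended on the setting. In *T* + *WSD* against *C* it was 10 in the main fit, 1 outside the batch, where fewer animals were fitted, and 0 with the mesothelial covariate, while the share of all genes went from 10% to 0.505% and 0%. Against *T* it was 7, then 1 and 0, and the share of all genes 3.77%, then 1.99% and 0%. Against *WSD* the single call was lost with no filter, with only the compared groups, outside the batch and with the covariate (0 each), and DESeq2 called 4 (2.55% of all genes it tested). DESeq2 also called 2 in *WSD* against *C* (1.59%). With 1 animal left out the counts ran from 6 to 10 against *C*, with 6 without *C* replicate 3, from 3 to 10 against *T*, from 0 to 3 against *WSD*, with 3 without *WSD* replicate 21 and 0 without any 1 of the other 11 animals compared, and from 0 to 1 in *WSD* against *C*, with 1 without *WSD* replicate 19. Against *T* it was 3 without *T* replicate 13 or 16 or *T* + *WSD* replicate 8 or 10, and 4 without *T* + *WSD* replicate 7, 9 or 12. The other 2 contrasts stayed at 0.

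The within-group relation of *MIF* and *DDT* passed in every alternative setting listed for relations (r from 0.828 to 0.894 with 1 animal left out). Within the batch alone (r = 0.770, 8 animals) this relation could not pass, since the arrangements allow no permutation p under 0.125. That of *CD44* with the macrophage mean did not pass outside the batch (0.727, adjusted p = 0.0601, with 16 animals). That of *CD74* with it ran from 0.463 to 0.683 and passed without *WSD* replicate 23 or *T* + *WSD* replicate 7 or 8. With the adipocyte mean, *CD74* reversed outside the batch (−0.114) and without the 2 extreme animals (−0.0471), and *CD44* likewise (−0.402 and −0.248). Weak relations reversed with 1 animal left out. Their ranges were −0.166 to 0.0261 for *DDT* and *CD44*, −0.199 to 0.0513 for *MIF* and the macrophage mean, −0.00732 to 0.322 for *DDT* and the mesothelial mean, and −0.0940 to 0.254 and −0.292 to 0.366 for *CD44* with the mesothelial and adipocyte means.

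Depth limits the batch libraries most. *T* + *WSD* replicate 8 had 120 counts of *MIF* and 109 of *DDT*, and *DDTL* had too few counts in every library for a fold change. No paired analysis was possible because the groups hold different animals.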
